A study of Mus musculus with 6 samples.

Results

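The 10 genes described here encode the enzymes that carry acetyl units from citrate and acetate into long-chain fatty acids, the elongases and desaturases that finish those acids, and the transcription factor SREBF1. They were taken by gene symbol from the 31456 rows of the deposited count table, and each symbol matched a row of its own. The list is a functional one, but it was chosen by a reader of an earlier analysis of these files, in which the level of SCD in resistant against parental cells was among the large falls. The differences of the 10 genes between the cell forms are therefore given as a description. Where calls from the model fitted across all genes are counted for them, the counts describe the values that chose the genes and are no independent test.

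The study sequenced RNA from the established human cell line HCT116, which derives from a colorectal carcinoma, to look for genes behind resistance to oxaliplatin, a platinum drug that forms DNA adducts. One group was the parental form and the other the oxaliplatin-resistant form, with 3 libraries each, numbered 1 to 3. Both groups share the cell line, and the labels name no further agent, dose or genetic change for either. The derivation of the resistant form, its clonal or mixed nature, the culture medium, and the presence of drug at harvest are not given in sources used here. Separate cultures for the libraries of a group are not mentioned in the labels, so the errors measure the spread between these libraries, which may be technical.

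New fatty acids are built in the cytosol. ACLY splits citrate, and ACSS2 activates acetate, to supply acetyl-CoA. ACACA carboxylates it to malonyl-CoA, and FASN assembles palmitate from these units. ELOVL6 lengthens saturated and monounsaturated acids, ELOVL5 lengthens polyunsaturated ones, SCD places the double bond that turns stearate into oleate, and FADS2 and FADS1 desaturate polyunsaturated acids. SREBF1 encodes the SREBP1 proteins, membrane-bound transcription factors that are released by cleavage in the Golgi and that activate most of these genes. FASN is commonly abundant in colorectal tumours.

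The total count was 20246878 to 32138423 per library, and 3 counts corresponded to 0.0933 to 0.148 CPM, the count scaled to library size. The lowest count of any of the 10 genes was 282, so all lay far above that floor, which covers counting error only. The line's epithelial markers EPCAM, KRT8, KRT18 and KRT19 were abundant in every library, with the 10 epithelial markers summing to 2765 to 3156 CPM in the parental and 2578 to 2723 CPM in the resistant libraries. CDH17, VIL1 and LGALS4 reached at most 10 counts in any library. KRT20 was also low, with 9, 10 and 7 counts in the parental libraries and 21, 13 and 25 in the resistant ones. The 5 adipocyte markers, whose cells also make fatty acids, summed to at most 0.293 CPM in the parental libraries and 0.603 CPM in the resistant ones. The 6 fibroblast markers summed to 22.5 to 26.1 CPM in the parental and to 39.3 to 44.9 CPM in the resistant libraries. COL1A1 made up most of this, at 24.3 and 41.7 CPM. PDGFRB had 5, 6 and 2 counts in the parental libraries and 17, 13 and 15 in the resistant ones, and COL3A1 had 1, 1 and 0 counts and 5, 11 and 9 counts. COL1A2, DCN and LUM had at most 2 counts in any library. The part of these markers in the differences below was not tested. Parental replicate 2 stood apart from parental replicates 1 and 3 on the second principal component (-17.6 against 6.92 and 11.4), and differences are also given without it.

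Taken as a sum, the counts of these genes were a smaller part of the library in the resistant cells. The 10 genes together held 0.619%, 0.640% and 0.617% of all counts in the parental libraries (replicates 1, 2 and 3, the order used throughout), and 0.160%, 0.163% and 0.156% in the resistant ones. Each parental library was above each resistant library. SCD alone made up 45.8% ± 1.53 of the counts of the 10 genes in the parental cells and 16.7% ± 0.799 in the resistant cells (SD, n = 3). Without SCD, the other 9 genes held 0.339% ± 0.0164 of counts in the parental cells and 0.133% ± 0.00414 in the resistant cells.

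In the model fitted across all 16605 tested genes, 9 of the 10 genes were called lower in the resistant cells and none higher (quasi-likelihood test of edgeR, adjusted p below 0.05). Over all tested genes 53.8% were called, 26.5% lower and 27.3% higher, and since this contrast led to the choice of the genes nothing is read from their count. The 9 genes were also those whose resistant libraries lay below every parental library, a pattern found in 29.9% of tested genes. Among the 10 genes, 5 were called at least 2-fold lower, against 2.57% of tested genes. Their median log2 fold change was -1.05, beside 0.02 over all tested genes. In bulk RNA, fewer cells with a transcript and less of it per cell cannot be told apart.

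**Figure D1:**
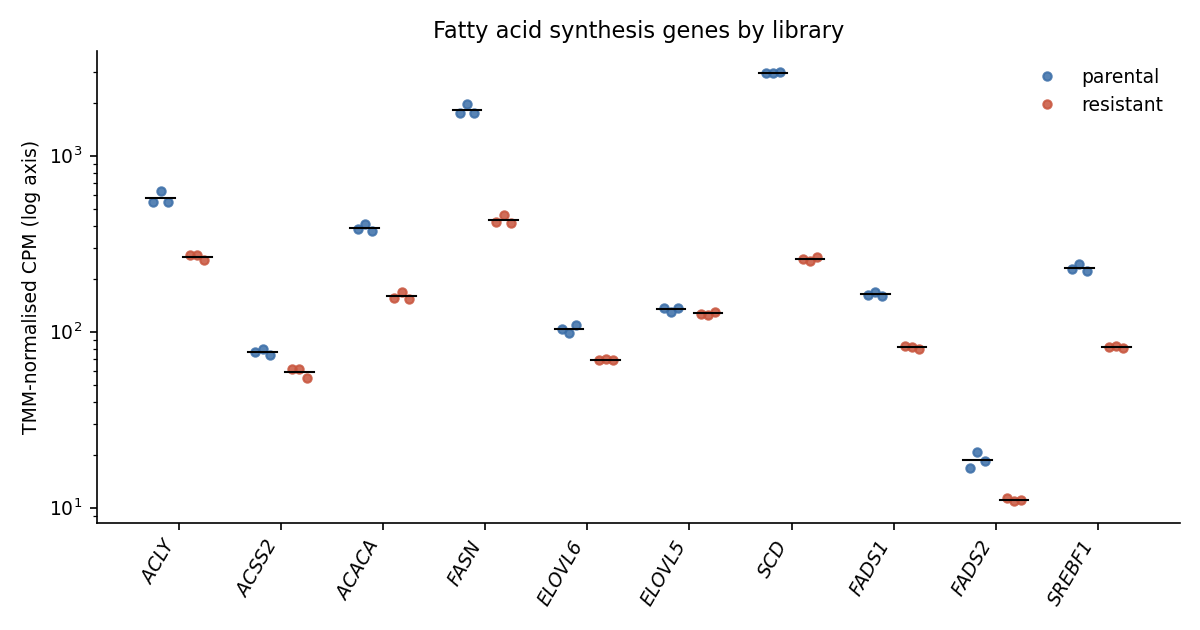
TMM-normalised CPM (log axis) of the 10 genes in 3 parental (blue) and 3 resistant (red) libraries; points are replicates 1 to 3 from left to right and bars are group means. SCD has the widest separation, from 2958 to 258 CPM, and ELOVL5 is the gene whose groups overlap.

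The enzymes that supply acetyl-CoA differed in size of change. ACLY (ENSG00000131473.17), the ATP citrate lyase, had 546, 627 and 544 CPM in the parental libraries and 274, 273 and 254 CPM in the resistant ones. Parental replicate 2 was the highest, and the groups did not overlap. The ACLY level was 2.14-fold lower in the resistant cells (log2 fold change -1.10 ± 0.060 SE). ACSS2 (ENSG00000131069.20), the cytosolic and nuclear acetyl-CoA synthetase that uses acetate, had 76.2, 80.1 and 74.1 CPM in the parental libraries and 61.1, 61.2 and 54.9 CPM in the resistant ones. The ACSS2 groups lay closer together and still did not overlap, with resistant replicate 3 the lowest. ACSS2 was 1.30-fold lower (log2 fold change -0.38 ± 0.057 SE). On the deposited length-scaled expression values, ACLY exceeded ACSS2 by a ratio of 2.72 ± 0.359 in the parental and 1.75 ± 0.0751 in the resistant libraries (SD, n = 3).

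The genes of the enzymes that build palmitate were also lower in the resistant cells, FASN by more than ACLY or ACSS2. ACACA (ENSG00000278540.5), the acetyl-CoA carboxylase whose step commits carbon to fatty acids, had 384, 410 and 374 CPM in the parental libraries and 155, 168 and 153 CPM in the resistant ones. Each resistant library was below each parental one, a 2.45-fold lower level (log2 fold change -1.29 ± 0.052 SE). FASN (ENSG00000169710.9), the multifunctional synthase, had 1747, 1969 and 1750 CPM in the parental libraries and 421, 461 and 416 CPM in the resistant ones. FASN was 4.21-fold lower (log2 fold change -2.07 ± 0.062 SE), and replicate 2 was the highest library of each group. The FASN to ACACA ratio of length-scaled values was 4.98 ± 0.248 in the parental and 2.64 ± 0.0261 in the resistant libraries (SD, n = 3), so the FASN transcript was lower by more than that of ACACA. The ACACA to ACLY ratio was 0.350 ± 0.0195 and 0.320 ± 0.0161, and its ranges overlapped between the groups.

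The elongases differed little or moderately, and ELOVL5 differed the least of the 10 genes. ELOVL6 (ENSG00000170522.9) had 104, 97.8 and 109 CPM in the parental libraries and 69.1, 70.0 and 68.7 CPM in the resistant ones, a 1.49-fold lower level without overlap (log2 fold change -0.58 ± 0.050 SE). ELOVL5 (ENSG00000012660.14) had 136, 129 and 137 CPM in the parental libraries and 127, 125 and 130 CPM in the resistant ones. Parental replicate 2 of ELOVL5 lay below resistant replicate 3, and its log2 fold change of -0.07 ± 0.045 (SE) was not called. Without parental replicate 2 the ELOVL5 value was -0.099 and narrowly passed the threshold (adjusted p = 0.045, quasi-likelihood test of edgeR). When libraries were scaled by their totals without further factors, which raises the median of all tested genes from 0.02 to 0.11, ELOVL5 had a log2 fold change of 0.023 and was not called.

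ELOVL6 read differently in the authors' 2 tables. Its deposited expression values were taken as FPKM, a read count divided by a length and by library size. They were 34.8, 32.6 and 46.7 in the parental and 31.1, 36.8 and 40.1 in the resistant libraries, and these groups overlapped. The log2 difference on log2(FPKM + 1) was -0.068 and was not called, against -0.58 in the counts. The count value includes TMM factors, which were not applied to the FPKM values, and with library sizes alone it was -0.485. The length implied by the tables, CPM without normalization factors divided by FPKM, was 2906, 2876 and 2263 bases in the parental and 2302, 1957 and 1769 bases in the resistant libraries. A fixed gene length applied to the same counts would give every library the same value. Parental replicate 3 sat below the other parental libraries and resistant replicate 1 just above it. The mean shift in implied length was -0.42 on the log2 scale, and 0.937% of 11632 genes with at least 5 CPM and 1 FPKM shifted by more. The difference in ELOVL6 therefore held in read counts and not in the length-scaled values, and the cause was not tested.

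**Figure D2:**
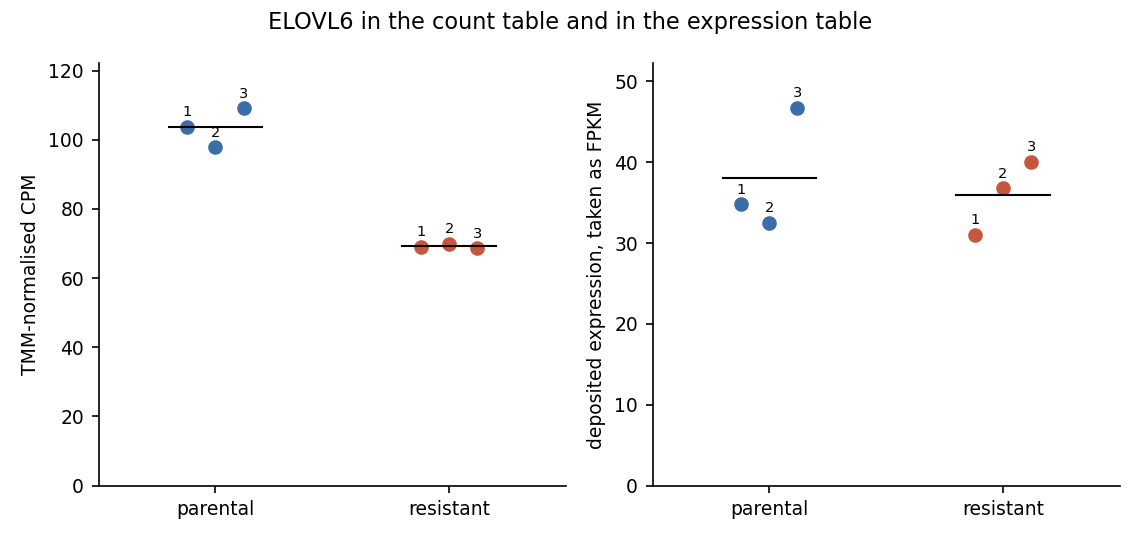
ELOVL6 as TMM-normalised CPM (left) and as deposited expression taken as FPKM (right); numbers are replicates and bars are means of 3 libraries, with both axes starting at 0. The CPM groups are separate (97.8 to 109 against 68.7 to 70.0), whereas the FPKM groups overlap (32.6 to 46.7 against 31.1 to 40.1).

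The desaturases held the widest difference and more moderate ones. SCD (ENSG00000099194.6), the stearoyl-CoA desaturase, had 2954, 2942 and 2979 CPM in the parental libraries and 258, 251 and 264 CPM in the resistant ones. The libraries of a group differed little, with a coefficient of variation of 0.628% in the parental and 2.45% in the resistant cells. The medians over all tested genes were 7.20% and 5.30%. They include many genes with far fewer counts than SCD, which ranked 18, 20 and 18 by count in the parental libraries, so the comparison is not one of like abundance. The SCD level in the resistant cells was 8.72% of the parental level, or 11.5-fold lower (log2 fold change -3.52 ± 0.047 SE). By FPKM, SCD ranked 170, 175 and 167 from the top of all rows in the parental libraries and 2133, 2181 and 2042 in the resistant ones. Its fold change ranked 35 from the lowest of the 16605 tested genes.

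FADS1 (ENSG00000149485.18), which desaturates the precursors of arachidonate and eicosapentaenoate, had 161, 168 and 159 CPM in the parental libraries and 82.7, 82.0 and 80.2 CPM in the resistant ones. The FADS1 groups were well apart, at a 1.99-fold lower level (log2 fold change -0.99 ± 0.044 SE). FADS2 (ENSG00000134824.14), the desaturase that starts the polyunsaturated pathway, had the fewest counts of the 10 genes, with 16.8, 20.6 and 18.4 CPM in the parental libraries and 11.3, 10.9 and 11.1 CPM in the resistant ones. These levels rested on 362 to 635 and 282 to 318 counts. FADS2 was 1.68-fold lower (log2 fold change -0.75 ± 0.083 SE), and its log2 difference was -0.40 on log2(FPKM + 1). FADS1 and FADS2 are neighbouring genes, and without a stated strand setting reads that overlap both could not be separated.

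SREBF1 (ENSG00000072310.16) had 227, 241 and 221 CPM in the parental libraries and 81.6, 82.9 and 80.6 CPM in the resistant ones. The resistant libraries were close to each other and well below the parental ones, a 2.81-fold lower level (log2 fold change -1.49 ± 0.047 SE). The table counts the gene as a whole, so its SREBP1a and SREBP1c transcripts were not told apart, and the cleavage of the protein was not measured.

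**Figure D3:**
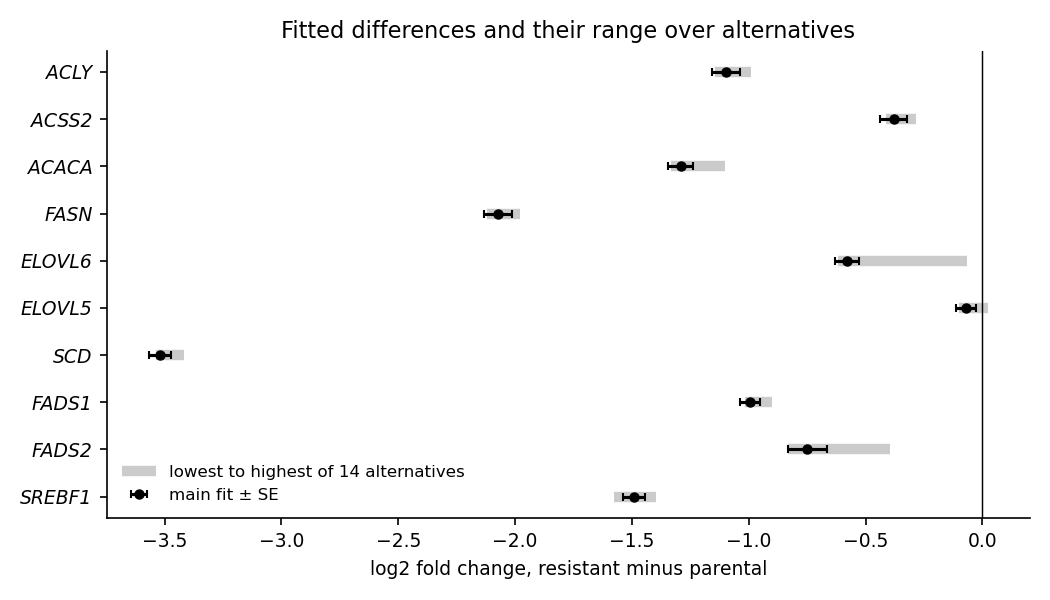
Fitted log2 fold change (resistant minus parental) of the 10 genes with SE (black), over the range from the lowest to the highest of 14 alternative settings (grey). ELOVL5 is the gene whose range crosses 0 (-0.099 to 0.023), and the ELOVL6 range is wide (-0.62 to -0.068).

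Levels can be compared between the genes on the length-scaled values. In the parental libraries SCD was the highest at 579 ± 7.53 FPKM (SD, n = 3), followed by FASN at 254 ± 16.9, ACLY at 146 ± 11.7 and SREBF1 at 117 ± 10.1 FPKM. The ranges of ACSS2 and ACACA overlapped, as did those of FADS1 and ELOVL6, and FADS2 was the lowest at 8.95 ± 1.76 FPKM. In the resistant libraries ACLY was the highest at 72.8 ± 2.93 FPKM, followed by ELOVL5 at 65.1 ± 1.44 and FASN at 61.4 ± 4.40 FPKM, the last 2 with overlapping ranges. SCD followed at 53.4 ± 1.46 FPKM. The ranges of ACSS2 and SREBF1, of SREBF1 and ELOVL6, and of ACACA and FADS1 overlapped there. The span from the highest to the lowest gene thus narrowed, and the SCD to FASN ratio went from 2.29 ± 0.174 to 0.874 ± 0.0837 (SD, n = 3).

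**Figure D4:**
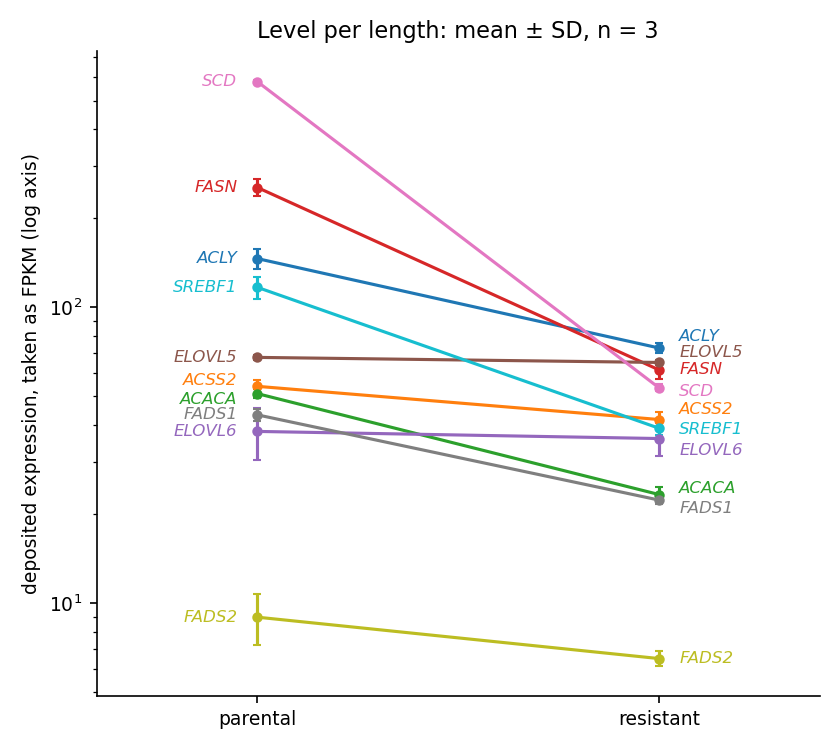
Deposited expression taken as FPKM (log axis), mean ± SD of 3 libraries, for each gene in parental and resistant cells. SCD moves from the first place (579 FPKM) to below ACLY, ELOVL5 and FASN (53.4 FPKM), while the ELOVL5 line is nearly flat (67.7 to 65.1 FPKM).

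The 10 genes did not vary together among the parental libraries. Parental replicate 2, the deepest library, was the highest of its group for 7 genes (FASN, ACLY, ACACA, FADS1, FADS2, SREBF1 and ACSS2) and the lowest for SCD, ELOVL5 and ELOVL6. Without it the log2 fold changes of FASN, ACLY and FADS2 were -2.01, -1.03 and -0.66, and that of SCD was -3.52. The part of depth or of this library's composition in that pattern was not tested.

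Over the 6 libraries, the 5 genes whose log2 CPM profile lay closest to that of SCD, among 11624 genes with a symbol and at least 5 CPM, were PDE4B, SQLE, INSIG1, IFIT2 and OASL. Their root mean square distances from the SCD profile were 0.083 to 0.12 on the log2 scale. These profiles mostly hold the group difference, so the measure finds genes with a fall of similar size. SQLE and INSIG1 belong to sterol synthesis and its control, PDE4B encodes a cyclic AMP phosphodiesterase, and IFIT2 and OASL are interferon-induced.

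The wider pathway was followed through 10 lists of other lipid genes, 159 symbols in all, of which 143 were tested. Of these 50 fell and 40 rose, and 53 stayed short of the threshold, with a median log2 fold change of -0.055. A total of 62.9% of them was thus called, beside 53.8% of all tested genes. With library sizes alone 39 fell and 53 rose, so the balance of directions over the lists depended on the scaling. The adjusted p-values given for these genes are from edgeR's quasi-likelihood test over all tested genes.

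**Figure D5:**
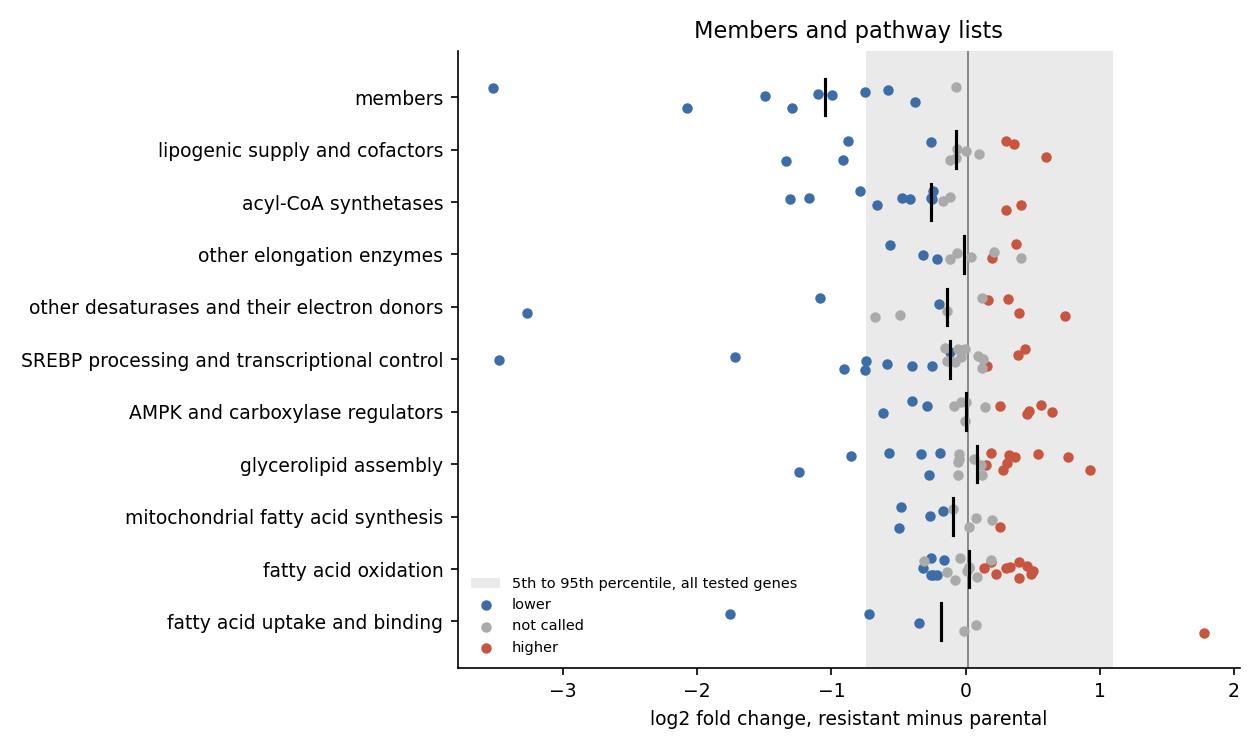
Fitted log2 fold change (resistant minus parental) of each tested gene in the 10 members and the 10 lists of other lipid genes; colour gives the call, short bars the medians, and the grey band the central 90% of all tested genes (-0.74 to 1.10). The members' median is -1.05, and the medians of the lists lie between -0.26 and 0.087. Members and lists were chosen with earlier results of these data known, so the medians are a description and no test.

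In the list of carbon and reductant supply, 4 of 12 tested genes fell, 3 rose and 5 did not pass, and ACSS1 and ACSS3 were too low for the test. SLC25A1, the mitochondrial carrier that exports citrate to ACLY, fell 1.88-fold from 80.8 ± 7.47 to 43.0 ± 2.81 CPM (SD, n = 3; adjusted p = 9.9e-07). IDH1, the cytosolic isocitrate dehydrogenase that yields NADPH, fell 2.54-fold from 147 ± 5.76 to 57.9 ± 1.13 CPM (adjusted p = 8e-10). SLC16A3, a lactate exporter, fell 1.84-fold (adjusted p = 1.2e-08). ACACB, the mitochondrial paralog of ACACA whose malonyl-CoA restrains fatty acid oxidation, rose 1.29-fold from 16.7 ± 0.631 to 21.5 ± 1.47 CPM (adjusted p = 8.6e-04). The ACACA to ACACB ratio of FPKM went from 13.7 ± 0.600 to 4.76 ± 0.424 (SD, n = 3).

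Among the other elongation enzymes 3 of 10 tested genes fell, 2 rose and 5 did not pass. With library sizes alone 2 fell and 4 rose, and on the FPKM values 1 fell and 2 rose. HSD17B12, the ketoacyl reductase shared by the elongases, fell 1.48-fold (adjusted p = 1.4e-05), and the dehydratase gene HACD2 fell 1.25-fold (adjusted p = 0.0025). HACD3, another dehydratase, rose 1.15-fold (adjusted p = 0.0087). ELOVL7, an elongase of saturated acids, rose 1.30-fold from 38.0 ± 5.03 to 49.2 ± 4.32 CPM (adjusted p = 0.0091). ELOVL1, which makes very long chains, fell 1.16-fold (adjusted p = 0.026), a call that was lost without resistant replicate 1 (adjusted p = 0.057) or 3 (adjusted p = 0.096) and with library sizes alone (adjusted p = 0.16). On the FPKM values the HACD2 adjusted p was 0.059 and 0.058, and that of ELOVL1 was 0.13, in limma.

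Of the other desaturases and their electron donors 3 of 11 tested genes fell, 4 rose and 4 did not pass. SCD5, the paralog of SCD, rose 1.32-fold from 37.5 ± 0.907 to 49.5 ± 1.02 CPM (adjusted p = 4.3e-05). SCD exceeded SCD5 by a FPKM ratio of 42.8 ± 1.23 in the parental and 2.82 ± 0.104 in the resistant libraries (SD, n = 3). FADS3, the third gene of the FADS family cluster, had 49.3 ± 3.36 and 45.0 ± 2.14 CPM (adjusted p = 0.088), and narrowly passed without parental replicate 1 (adjusted p = 0.050) and with no low-count filter (adjusted p = 0.037). CYB5B, the outer mitochondrial membrane cytochrome b5, fell 2.13-fold from 655 ± 6.48 to 308 ± 15.3 CPM (adjusted p = 3.9e-09). CYB5A, the microsomal cytochrome b5 that hands electrons to SCD and the FADS enzymes, rose 1.67-fold (adjusted p = 5.1e-06). CYB5R2, a cytochrome b5 reductase gene, fell 9.62-fold from 12.5 ± 1.07 to 1.28 ± 0.291 CPM (adjusted p = 6.2e-09).

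The list of SREBP processing and transcriptional control had 9 of 22 tested genes lower, 3 higher and 10 not past the threshold, and 8 lower and 6 higher with library sizes alone. SREBF2, the paralog of SREBF1 that mainly drives sterol genes, fell 3.29-fold from 330 ± 8.51 to 100 ± 3.06 CPM (adjusted p = 7.5e-11). INSIG1, which holds the SREBP escort protein in the endoplasmic reticulum and is itself an SREBP target, fell 11.1-fold (adjusted p = 1.6e-10). RNF139, a ubiquitin ligase of the endoplasmic reticulum, fell 1.87-fold (adjusted p = 1e-07). MLX, the partner of the carbohydrate-response factor MLXIPL, fell 1.68-fold (adjusted p = 1.4e-07).

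In the AMPK list, named for the kinase that phosphorylates and inhibits ACACA, 3 of 13 tested genes fell and 5 rose. The regulatory subunit genes PRKAB2 and PRKAB1 rose 1.48-fold (adjusted p = 7.6e-06) and 1.39-fold (adjusted p = 2.6e-05), and PRKAG1 fell 1.54-fold (adjusted p = 3.4e-05). MID1IP1, whose protein promotes polymerization of acetyl-CoA carboxylase, fell 1.32-fold from 118 ± 0.498 to 89.4 ± 1.09 CPM (adjusted p = 8.4e-06). Kinase activity and carboxylase phosphorylation were not measured.

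Acyl-CoA synthetases, which activate fatty acids for use, had 9 of 13 tested genes lower and 2 higher, with a median log2 fold change of -0.26. On the FPKM values 5 were lower. ACSL3, the synthetase of lipid droplets and the endoplasmic reticulum, fell 2.48-fold from 274 ± 17.2 to 111 ± 3.18 CPM (adjusted p = 2.6e-09). ACSL4, which prefers arachidonate, fell 1.58-fold (adjusted p = 1.3e-06) and ACSL1 fell 1.33-fold (adjusted p = 1.4e-04). ACSF2 rose 1.33-fold (adjusted p = 0.0012).

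Glycerolipid assembly had 6 of 22 tested genes lower and 9 higher. LPIN1, a phosphatidate phosphatase gene, fell 2.36-fold (adjusted p = 5.9e-09), and DGAT1, which makes triglyceride, fell 1.81-fold (adjusted p = 5.7e-07). GPAT3, a glycerol-phosphate acyltransferase, rose 1.90-fold from 70.5 ± 1.14 to 134 ± 1.98 CPM (adjusted p = 8.2e-09). GPAT2 fell 1.48-fold (adjusted p = 5.5e-06), which is uncertain because it has close copies in the genome. With library sizes alone 4 genes of this list fell and 11 rose.

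Fatty acid oxidation, the opposite route, had 10 of 25 tested genes higher, 6 lower and 9 not called, with a median log2 fold change of 0.027. With library sizes alone 12 rose and 2 fell, and on the FPKM values 9 rose and 3 fell. CPT1A, the carnitine acyltransferase that malonyl-CoA inhibits, rose 1.40-fold from 179 ± 12.1 to 252 ± 6.53 CPM (adjusted p = 1.1e-05). HSD17B4, a peroxisomal enzyme, rose 1.42-fold (adjusted p = 1.2e-06), and ACADVL, the very-long-chain dehydrogenase, rose 1.32-fold (adjusted p = 1.7e-05). ACADM, the medium-chain dehydrogenase, fell 1.25-fold (adjusted p = 1.6e-04).

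Mitochondrial fatty acid synthesis, a separate system that feeds lipoic acid, had 4 of 9 tested genes lower and 1 higher, and 2 each on the FPKM values. NDUFAB1, its acyl carrier protein, fell 1.39-fold (adjusted p = 1.1e-04), and MECR, its enoyl reductase, fell 1.20-fold (adjusted p = 0.0045), with a MECR adjusted p of 0.17 and 0.16 on FPKM in limma. MCAT, the malonyl transferase, had a log2 fold change of -0.17 (adjusted p = 0.048). MCAT did not pass without parental replicate 2 or 3, or without resistant replicate 1, 2 or 3 (adjusted p 0.063 to 0.16), nor in DESeq2 (adjusted p = 0.13), with adjusted p-values between 0.023 and 0.51 over the alternatives. CBR4, a reductase subunit gene, had a log2 fold change of 0.25 (adjusted p = 0.022) and did not pass without parental replicate 2 or 3 or resistant replicate 1 or 3 (adjusted p 0.063 to 0.10).

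In the list of uptake and binding 3 of 6 tested genes fell and 1 rose, 2 with library sizes alone. DBI, the acyl-CoA binding protein gene, fell 1.65-fold (adjusted p = 2.7e-06). FABP5, a fatty acid binding protein gene with processed pseudogenes that make its count uncertain, fell 1.27-fold (adjusted p = 3.3e-05). The gene that rose was FABP6, named after its value was seen, at 1.05 ± 0.258 and 3.58 ± 0.404 CPM (adjusted p = 1.6e-05). The uptake and binding genes CD36, FABP3, FABP4, FABP7 and VLDLR were too low for the test.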

How the data were processed

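Per the labels' protocols, total RNA was turned into libraries with the SMARTER mRNA-Seq kit. The authors deposited read counts per gene as whole numbers without normalization. They also deposited an expression table whose header names no unit. It is treated as FPKM computed by the authors, because the ratio of CPM to its values differs between genes. That ratio was not compared with known gene lengths. The sources used here do not give the aligner, counter, annotation or strand setting. The labels name mouse and the submitters' processing notes name GRCm38 and mm10, but the rows that name a gene carry human Ensembl identifiers and symbols, which were used as given, without coordinates or sequences.

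Counts were tested with edgeR 4.0.16 in R 4.3.3 (TMM, filterByExpr, robust quasi-likelihood fit, two-sided, Benjamini-Hochberg over 16605 genes, threshold 0.05). Of 840 rows that carry neither an Ensembl identifier nor a symbol, 503 were among the tested genes. CPM include the TMM factors, and an SD is over 3 libraries. The SE is the log2 fold change divided by the square root of F. Alternatives used RLE factors, library sizes alone, DESeq2 1.42.0, other filters, a replicate block, limma 3.58.1 on log2(FPKM + 1) and log2(FPKM + 0.1) over the same genes, and each library left out.

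The members and lists were chosen with earlier results of these data known. Named were the members, 8 paralogs or partners (SCD5, FADS3, ELOVL1, ELOVL7, SREBF2, INSIG1, ACACB, SLC25A1) and, per list, up to 4 called genes of at least 5 CPM with the smallest adjusted p. Of 159 list symbols 7 had no row and were not analysed. The 5 genes closest to SCD were found on log2(CPM + 0.01), centred per gene. Some genes that this rule names are not reported here.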

Additional observations from a re-analysis of the deposited data

How the results depend on the processing

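Over 14 alternatives the 9 genes called lower in the main analysis kept their direction, and 8 of them kept their call in each alternative. ELOVL6 was not called on the 2 FPKM scales (log2 differences of -0.068 and -0.070 in limma), where 8 members were lower. ELOVL5 changed direction with library sizes alone (0.023), and no other gene named under the rule did so in any alternative. No member was called higher under any alternative, and with each library left out in turn 9 to 10 members were called lower. Of all tested genes 4399 were lower in the main fit and 2807 and 2804 with limma on log2(FPKM + 1) and log2(FPKM + 0.1), and the cause was not tested. No TMM factors were applied to the FPKM values. With library sizes alone, which also leave these factors out, 3146 genes were lower. Of the called genes 65.3% were then higher, against 59.7% on both FPKM scales and 50.8% in the main fit. With each library left out in turn 3797 to 4612 genes were lower and 3869 to 4597 higher, and 43 to 52 list genes were lower and 34 to 43 higher. With the replicate block 4963 genes were lower and 5010 higher, 9 members were lower, and 57 list genes were lower and 45 higher. Libraries sharing a number deviated together with correlations of 0.098, 0.258 and 0.083 across genes. Of the unmatched combinations, parental replicate 3 with resistant replicate 1 had 0.106 and parental replicate 1 with resistant replicate 3 had 0.058. The other unmatched ones were negative (-0.112 to -0.179). The labels do not say that the numbers pair cultures, so the main fit did not take them as pairs. Depth did not limit the members, whereas list genes with few counts were left out of the test.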

Other observations

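The length implied by the deposited tables, CPM without normalization factors divided by FPKM, shifted by less than 0.1 on the log2 scale between the cell forms for 7 of the 10 genes. The largest of these 7 shifts was that of ACSS2 (0.087), and only 28.3% of 11632 genes shifted by more, so shifts this small were common. For SCD it was 4941 ± 8.11 bases in the parental and 4987 ± 5.51 bases in the resistant libraries (SD, n = 3), and for ACLY 3789 ± 25.8 and 3787 ± 10.4 bases. The implied lengths did not overlap between the groups for SCD, FASN, ACACA and SREBF1. The share of all genes without overlap was not computed, so nothing is read from this separation. For SREBF1 the length was 1909 ± 109 and 2167 ± 118 bases, a log2 shift of 0.18, and 8.89% of the 11632 genes shifted by more. For FADS2 it was 2037 ± 199 and 1769 ± 62.8 bases, with parental replicate 2 at 1808 bases inside the resistant range, a shift of -0.20. Over those genes the central 90% of shifts ran from -0.11 to 0.21, so SREBF1 lay inside it and FADS2 and ELOVL6 outside it.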
